A study of Mus musculus with 6 samples.

Results

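The 10 genes described here encode the subunits of the hypoxia-inducible factors (HIF) and the enzymes and adaptor that sense oxygen for them. They were chosen by symbol from the 55335 genes of the deposited count table, through the Ensembl gene identifier without its version. RNA was sequenced from mouse embryonic fibroblasts (MEF), a connective tissue cell line labelled wild type, either as parental cells (Ctrl) or after the cells had passed through a membrane with pores 3 μm wide and been collected 15 h after seeding (Confine). The table has 3 columns per group, but Confine replicates 1 and 2 do not differ in any gene, so they enter as a single library. This leaves 3 Ctrl libraries, the repeated Confine library and Confine replicate 3. The labels do not say whether libraries of a group came from separate cultures, so p-values measure the spread between these libraries, which may be technical. Passage through the pores, culture on the membrane and selection of the cells that crossed cannot be told apart in this design.

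HIF is a transcription factor made of an alpha and a beta subunit. Where oxygen is plentiful, prolyl hydroxylases (Egln1, Egln2 and Egln3, the PHD enzymes) mark the alpha subunit, the von Hippel-Lindau protein (Vhl) binds the marked form, and the proteasome destroys it. An asparaginyl hydroxylase, encoded by Hif1an and known as FIH, blocks recruitment of coactivators to alpha subunits that escape. All these hydroxylases use molecular oxygen as a substrate, and Egln1 and Egln3 are known as HIF target genes themselves. The control of the alpha subunits is thus mainly at the level of protein, which mRNA counts do not measure.

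Of the 10 genes, 8 passed edgeR's filter on low counts and were tested among 15881 genes by edgeR's quasi-likelihood test on counts normalized by the TMM method. Levels are given as normalized CPM, counts per 1000000 counts of the TMM-scaled library. Egln1 and Vhl rose in Confine and Arnt2 fell, at an adjusted p under 0.05. Among all tested genes, 12.8% were higher and 10.2% lower by this rule, so a single member lower of 8 is near the background and says nothing of the list. With the study's further cutoff, an absolute log2 fold change above 1.5, Egln1 and Vhl were still called, against 4.89% of all tested genes called higher. No member was called lower, against 3.11%. The members were chosen with earlier results of these data known, so these shares are not an independent comparison. The median log2 fold change was 0.04 over the 8 tested members and -0.0021 over all tested genes. Hif1a, Epas1, Arnt, Egln2 and Hif1an did not pass the test. Hif3a and Egln3 were not tested, since they had 0 to 2 counts in any library.

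**Figure D1:**
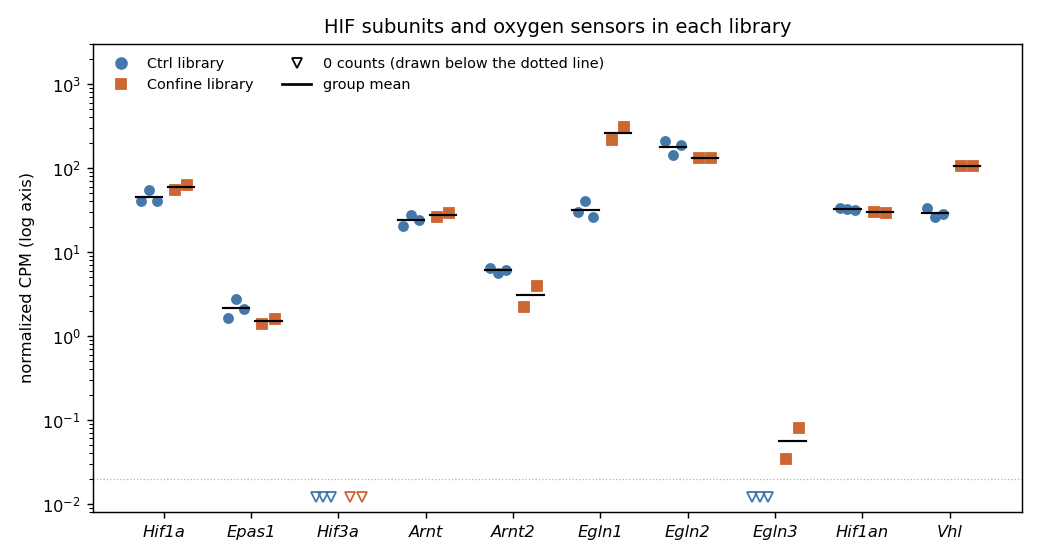
Normalized CPM (log axis) of the 10 genes in each library, with Ctrl libraries as circles, Confine libraries as squares and group means as lines, and libraries with 0 counts drawn as open triangles below the dotted line. Egln1 and Vhl are the 2 genes whose Confine libraries stand far above Ctrl, and Arnt2 lies lower in Confine.

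Among the prolyl hydroxylase genes, Egln1 rose, Egln2 did not pass the test and Egln3 had at most 2 counts. Positions are given on GRCm38 throughout. Egln1 encodes PHD2, the enzyme that does most of the hydroxylation of HIF alpha in most cells (chromosome 8, minus strand, 124908587 to 124949324). It had 861, 1058 and 619 counts in Ctrl replicates 1 to 3, 6299 in the repeated Confine library and 7687 in Confine replicate 3. Both Confine libraries lay far above all Ctrl libraries. In normalized CPM, Ctrl averaged 32.0 ± 7.11 (SD, n = 3) and Confine 259.0 ± 65.3 (SD, n = 2). This is an 8.09-fold rise, a log2 fold change of 3.02 (standard error 0.22, 95% interval 2.56 to 3.47, edgeR adjusted p = 1.249e-08), and Egln1 ranked 62nd of all tested genes by p. In bulk RNA, a change in how many cells express a gene and a change in its RNA per cell cannot be told apart.

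Egln2 encodes PHD1, a mostly nuclear prolyl hydroxylase (chromosome 7, minus strand, 27158658 to 27166802). Ctrl replicates 1 to 3 held 5986, 3773 and 4469 counts, the repeated Confine library held 3872, and 3298 were counted in Confine replicate 3. After normalization the Ctrl libraries held 207 (replicate 1), 143 (replicate 2) and 190.1 (replicate 3) CPM, and both Confine libraries held 131 CPM, below every Ctrl library. The log2 fold change was -0.46 (standard error 0.19, 95% interval -0.87 to -0.05), which did not pass (edgeR adjusted p = 0.1001). Of the 5 libraries left out in turn, only Ctrl replicate 2 changed the call, with a log2 fold change of -0.60 without it (edgeR adjusted p = 0.0097), while without Ctrl replicate 1 it was -0.35 (edgeR adjusted p = 0.33). Scaling by library size only gave -0.66 (edgeR adjusted p = 0.0137), but this scaling moved the median of all tested genes by -0.208, about as much as Egln2. With RLE size factors it was -0.47 and did not pass (edgeR adjusted p = 0.094).

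Egln3 encodes PHD3, the prolyl hydroxylase whose mRNA is strongly induced by low oxygen in many cell types. It spans bases 54178981 to 54203860 of chromosome 12 (minus strand). It had 0 counts in all 3 Ctrl libraries, 1 in the repeated Confine library and 2 in Confine replicate 3. These values are all at or under a floor of 3 counts per library, which corresponds to between 0.101 and 0.128 normalized CPM, so no fold is given and no difference was detectable at this depth. The protocol names no molecular identifiers, so such floors cover counting error only.

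Egln1 held a larger share of the prolyl hydroxylase mRNA in both Confine libraries than in any Ctrl library. In counts per kilobase of exon, which allow genes to be compared within a library, Egln1 made up 10.1% of the summed level of the 3 genes in Ctrl replicate 1, 17.9% in replicate 2 and 9.74% in replicate 3. It made up 55.9% in the repeated Confine library and 64.5% in Confine replicate 3. Egln2 was thus the main transcript in every Ctrl library, and Egln1 in both Confine libraries. The mean share of Egln1 was 12.6% ± 4.63 (SD, n = 3) in Ctrl and 60.2% ± 6.07 (SD, n = 2) in Confine, a difference of 47.6 percentage points. A two-sided exact permutation test gave p = 0.1, which is as low as this design can go. The summed level of the 3 genes was 73.1 ± 10.2 normalized CPM per kilobase (SD, n = 3) in Ctrl and 118.8 ± 18.2 (SD, n = 2) in Confine, a ratio of 1.62.

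**Figure D2:**
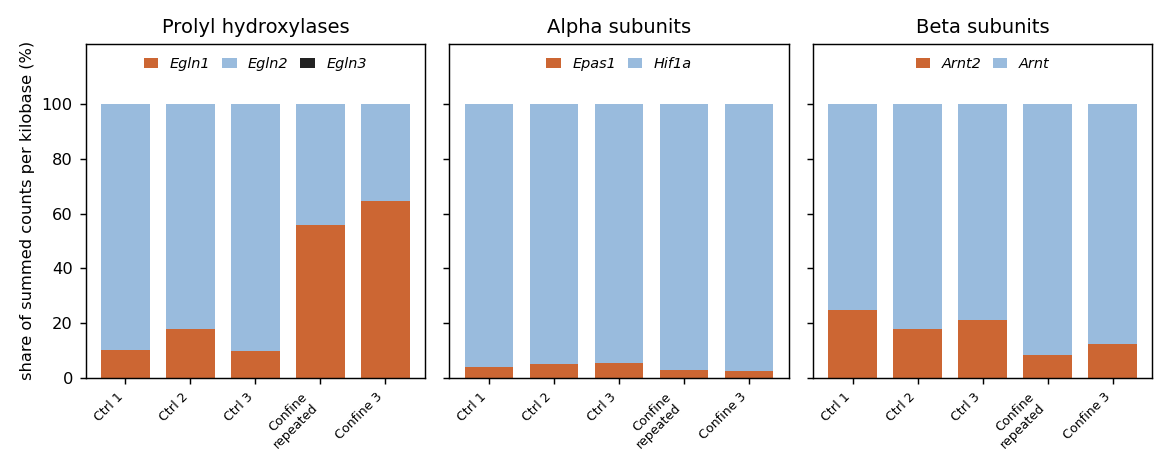
Share (%) of each gene in the summed counts per kilobase of its family, 1 bar per library, for the prolyl hydroxylases (left), the alpha subunits (middle; Hif3a had 0 counts) and the beta subunits (right). Egln1 goes from 9.74% to 17.9% of the prolyl hydroxylase sum in Ctrl libraries to 55.9% and 64.5% in Confine libraries, and the shares of Epas1 and Arnt2 are smaller in both Confine libraries than in any Ctrl library.

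Vhl encodes the substrate-binding part of the ubiquitin ligase that recognises hydroxylated alpha subunits (chromosome 6, plus strand, 113623959 to 113631633). Ctrl replicates 1 to 3 held 959, 697 and 659 counts, the repeated Confine library held 3095, and 2688 were counted in Confine replicate 3. The Confine values of 105 and 107 normalized CPM were close to each other, and all Ctrl libraries lay between 26.3 and 33.1 normalized CPM. Vhl rose by 3.62-fold, a log2 fold change of 1.86 (standard error 0.18, 95% interval 1.48 to 2.24, edgeR adjusted p = 5.941e-07). No annotated gene overlaps Egln1 or Vhl, and no transcript of another gene shares 100 bp or more with either at 95% identity or above.

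Hif1an, the asparaginyl hydroxylase gene (chromosome 19, plus strand, 44562850 to 44576274), had the smallest log2 fold change in size among the 8 tested members. It had 33.7, 32.3 and 31.4 normalized CPM in the Ctrl libraries, 30.2 in the repeated Confine library and 29.0 in Confine replicate 3. The Confine values lay just below the Ctrl values. The log2 fold change was -0.13 (95% interval -0.51 to 0.24, edgeR adjusted p = 0.656), and the interval leaves room for a modest change either way.

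**Figure D3:**
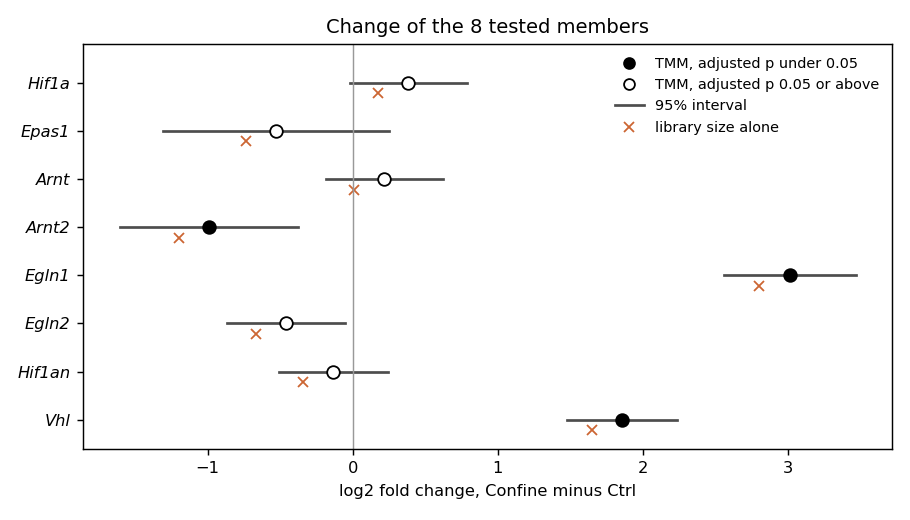
Log2 fold change (Confine minus Ctrl) of the 8 tested genes with 95% intervals, filled where the edgeR adjusted p was under 0.05, and the value with library size alone as a cross. Egln1 (3.02), Vhl (1.86) and Arnt2 (-0.99) are filled, and library size alone moves every gene to the left by about the same amount.

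HIF binds DNA at a core of 5 letters, the hypoxia response element. The windows from 250 bases before to 50 bases after the RefSeq start sites were searched for ACGTG and for GCGTG on both strands. The RefSeq table used here matched 9 of the 10 genes, with a second window for Egln2, and Epas1 was not analysed here. The windows of Egln1 and Vhl are shown because these genes rose most, and the upstream window of Egln2 because that paralog was not called. Capitals mark matches of either core on either strand, and all windows read 5′ to 3′ on the strand of the gene (RefSeq, GRCm38.p6).
Egln1, chr8:124949205-124949504, minus strand: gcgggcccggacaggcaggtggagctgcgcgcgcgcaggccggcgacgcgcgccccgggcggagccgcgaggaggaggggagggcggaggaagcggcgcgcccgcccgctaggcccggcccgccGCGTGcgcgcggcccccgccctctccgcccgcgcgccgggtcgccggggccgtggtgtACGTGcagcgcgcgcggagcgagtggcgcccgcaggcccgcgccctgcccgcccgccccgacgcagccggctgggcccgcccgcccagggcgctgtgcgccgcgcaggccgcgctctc
Vhl, chr6:113623744-113624043, plus strand: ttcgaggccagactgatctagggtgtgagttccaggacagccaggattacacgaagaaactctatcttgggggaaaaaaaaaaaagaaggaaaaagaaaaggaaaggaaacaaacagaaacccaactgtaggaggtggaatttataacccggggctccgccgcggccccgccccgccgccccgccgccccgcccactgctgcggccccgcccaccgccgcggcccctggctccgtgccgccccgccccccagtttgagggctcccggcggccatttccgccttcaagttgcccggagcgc
Egln2, chr7:27166753-27167052, minus strand: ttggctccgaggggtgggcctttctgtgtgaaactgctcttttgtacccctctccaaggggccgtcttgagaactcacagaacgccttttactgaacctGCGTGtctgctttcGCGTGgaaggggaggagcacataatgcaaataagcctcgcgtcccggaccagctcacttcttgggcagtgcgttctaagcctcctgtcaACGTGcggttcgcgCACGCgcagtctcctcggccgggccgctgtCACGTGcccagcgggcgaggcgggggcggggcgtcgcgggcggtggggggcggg

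The Egln1 window has 2 matches, GCGTG from position -126 and ACGTG from position -68, counted from the RefSeq start site as 0. In GENCODE the gene starts farther upstream, at 124949324, so the ACGTG lies inside the GENCODE gene and the GCGTG before it. The Vhl window has 0. The Egln2 window shown has 5 separate matches, where overlapping ones such as CACGTG, which holds ACGTG on both strands, count once. Of all 32817 windows in the RefSeq table, 43.8% hold at least 1 match of either core, 17.3% at least 2 and 0.792% at least 5. The letters G and C make up 86.0% of the Egln1 window, 62.7% of that of Vhl and 64.3% of the Egln2 window shown. The shares over all windows were not matched for this content. Among the other members, the Hif1a window has 2 separate matches, that of Hif3a 2, those of Arnt, Egln3 and the second Egln2 start 1 each, and those of Arnt2 and Hif1an 0. For Hif1a and Egln3 the last letters of the window, after the RefSeq start, were not found as an unbroken match in a GENCODE transcript of the gene. For Egln3 a small offset between the annotated starts is enough to give this outcome. The Hif1a window (73907617 to 73907916) lies inside the GENCODE gene, which starts farther upstream, at 73901375. A match is a string of letters and not evidence of binding, and a window without one says nothing of sites farther away.

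**Figure D4:**
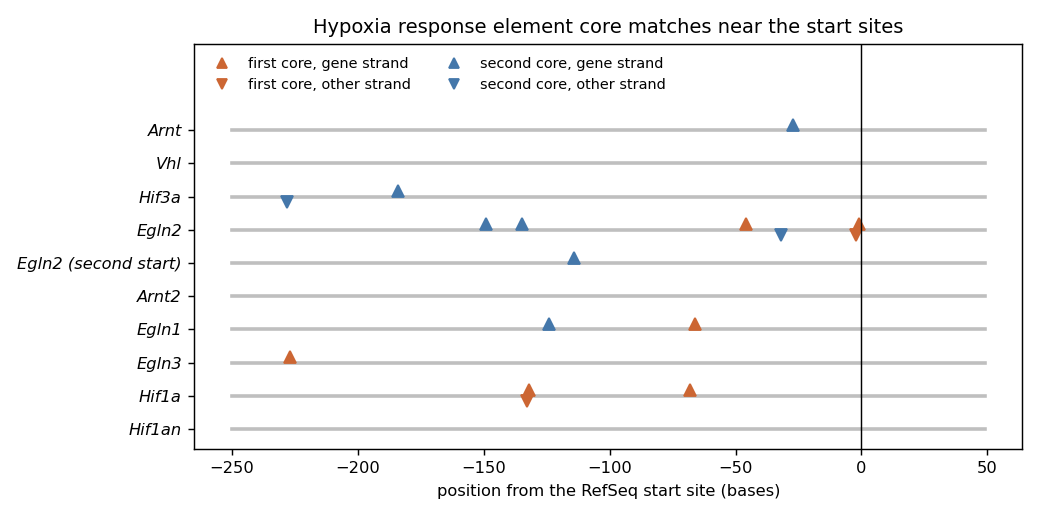
Position (bases from the RefSeq start site) of hypoxia response element core matches in the 10 windows of 9 genes, with triangles pointing up for the strand of the gene and down for the other strand, the first core being ACGTG and the second GCGTG. Egln1 has 2 matches before its RefSeq start site, Egln2 has the most, and Vhl, Arnt2 and Hif1an have 0.

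Neither of the tested alpha subunits, Hif1a and Epas1, passed the test. Hif1a, the broadly expressed alpha subunit, spans bases 73901375 to 73947530 of chromosome 12 (plus strand). It had 40.8, 54.3 and 40.0 normalized CPM in the Ctrl libraries, 54.2 in the repeated Confine library and 63.3 in Confine replicate 3. Ctrl replicate 2 and the repeated Confine library had nearly the same value, so the groups overlapped. The log2 fold change was 0.38 (standard error 0.19, 95% interval -0.02 to 0.79), which did not pass (edgeR adjusted p = 0.169). Without Ctrl replicate 2 it was 0.54 and passed (edgeR adjusted p = 0.0207). Hif1a shares exon sequence with the antisense gene Gm15283, which had 23 to 38 counts per library against at least 941 for Hif1a. It also shares 148 bp of exon with the protein-coding gene Gm49321 on the same strand, which had 0 counts in every library.

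Epas1 encodes the alpha subunit HIF-2α, best known in endothelial cells and in cells that make erythropoietin (chromosome 17, plus strand, 86753700 to 86833410). Ctrl replicates 1 to 3 held 47, 72 and 49 counts, the repeated Confine library held 41, and 40 were counted in Confine replicate 3. Both Confine libraries, at 1.39 and 1.59 normalized CPM, lay just below the lowest Ctrl library at 1.62. The log2 fold change of -0.53 had a wide 95% interval (-1.31 to 0.25) and did not pass (edgeR adjusted p = 0.343). In counts per kilobase, Epas1 was 4.75% ± 0.636 (SD, n = 3) of the summed alpha subunits in Ctrl and 2.60% ± 0.0330 (SD, n = 2) in Confine (two-sided exact permutation test, p = 0.1, the smallest p possible). Of 6 endothelial markers, 0 were tested, and their summed level was 0.298 to 0.718 normalized CPM in Ctrl and 0 to 0.159 in Confine. Emcn and Tie1, markers of that cell type, were at 0 in every library.

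Hif3a, whose shorter products are known to inhibit the other alpha subunits, spans bases 17031507 to 17062427 of chromosome 7 (minus strand). It had 0 counts in all 5 libraries, which allows up to 3 counts in each. The alpha subunit mRNA in these cells was thus almost entirely Hif1a.

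Of the beta subunits, Arnt2 fell and Arnt did not pass the test. Arnt, the common partner of all alpha subunits and of the dioxin receptor Ahr, spans bases 95434388 to 95497240 of chromosome 3 (plus strand). Ctrl replicates 1 to 3 held 590, 719 and 566 counts, the repeated Confine library held 777, and 738 were counted in Confine replicate 3. In normalized CPM the groups overlapped, with 20.4 to 27.2 in Ctrl and 26.2 and 29.3 in Confine. The log2 fold change was 0.22 (95% interval -0.18 to 0.62, edgeR adjusted p = 0.461) with TMM and 0.0077 with library size alone.

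Arnt2, a paralog of Arnt best known in neurons and kidney, spans bases 84246278 to 84410176 of chromosome 7 (minus strand). Ctrl replicates 1 to 3 held 187, 150 and 145 counts, the repeated Confine library held 66, and 99 were counted in Confine replicate 3. The Ctrl values of 6.46, 5.67 and 6.17 normalized CPM were tight, and the Confine values of 2.23 and 3.93 lay below them but apart from each other. Arnt2 fell by 0.99 on the log2 scale (standard error 0.29, 95% interval -1.60 to -0.38, edgeR adjusted p = 0.0191). The call was lost without the repeated Confine library, when the log2 fold change was -0.63 (edgeR adjusted p = 0.249 with 1 Confine library, assumed to vary like the Ctrl libraries). It was also lost without Ctrl replicate 1 (log2 fold change -0.95, edgeR adjusted p = 0.0544). Arnt2 overlaps the antisense gene Gm30873, with 28 to 50 counts per library, and whether counting used the strand is not given in the sources used here.

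In counts per kilobase, Arnt2 made up 24.8%, 17.9% and 21.1% of the summed Arnt and Arnt2 level in Ctrl replicates 1 to 3. It made up 8.13% in the repeated Confine library and 12.3% in Confine replicate 3, below every Ctrl library (two-sided exact permutation test, p = 0.1, the smallest p possible). The summed level of both beta subunits was 3.77 ± 0.374 normalized CPM per kilobase (SD, n = 3) in Ctrl and 3.87 ± 0.426 (SD, n = 2) in Confine. Arnt was the main beta subunit in all 5 libraries.

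Ordered by level in normalized CPM per kilobase of exon, Egln2 came first in Ctrl with a mean of 64.2, with no overlap with the next gene. Vhl (9.73), Egln1 (8.91) and Hif1a (7.64) followed, and in this order each neighbour pair overlapped in range. Hif1an (4.91), Arnt (2.98), Arnt2 (0.793) and Epas1 (0.383) came next without overlap between neighbours. In Confine the order began with Egln1 (72.1), Egln2 (46.7) and Vhl (35.25), and their ranges did not overlap. Hif1a (9.97) came next, and the order from Hif1a to Epas1 was that of Ctrl. Lengths are those of the merged exons of all annotated transcripts, from 2662 bp for Egln3 to 8007 bp for Arnt, so genes with long rare exons may be set too low.

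The rest of the pathway was read from lists grouped by role. Of 18 genes that act on HIF stability, all were tested, 2 rose, 2 fell and 14 did not pass. Against 12.8% of all tested genes higher and 10.2% lower, both counts are near the background and are no result about the list, so the genes below are given as single values. Wsb1, a ubiquitin ligase component known to act on Vhl, rose with a log2 fold change of 0.96 (edgeR adjusted p = 0.000572). Siah2, a ubiquitin ligase known to act on prolyl hydroxylases, rose with 0.76 (edgeR adjusted p = 0.0415). Stub1, a chaperone-linked ubiquitin ligase, fell with a log2 fold change of -1.25 (edgeR adjusted p = 0.0122), although its Ctrl libraries spread from 33.75 to 121 normalized CPM. Senp1, which removes SUMO from proteins, fell by 0.55 on the log2 scale (edgeR adjusted p = 0.0498). The partners of Vhl in its ligase, Elob, Eloc, Cul2 and Rbx1, did not pass, with log2 fold changes of 0.26, -0.01, -0.36 and -0.12. The median of the list was -0.06. Leaving out Ctrl replicate 1, the repeated Confine library or Confine replicate 3 left 0 genes of this list lower and 1 higher, and leaving out Ctrl replicate 3 gave 3 lower and 1 higher.

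Among 12 coactivators and their inhibitors, 11 were tested, 3 rose and 0 fell, with a median log2 fold change of -0.05, against 12.8% of all tested genes higher and 10.2% lower. Without Confine replicate 3 only 1 of the list was higher, so nothing is read from the count. The coactivators Ep300 and Crebbp had log2 fold changes of -0.16 and 0.27 and did not pass. The 3 that rose were Cited1, a relative of the HIF inhibitor Cited2 (1.67, edgeR adjusted p = 0.00337), Pkm, pyruvate kinase, itself a glycolysis gene (1.32, edgeR adjusted p = 4.374e-05), and the nuclear receptor coactivator Ncoa3 (0.60, edgeR adjusted p = 0.0203). Cited2 had -0.35 and did not pass (edgeR adjusted p = 0.217). Of 11 other bHLH-PAS genes, the protein family of the HIF subunits, 7 were tested, 1 rose and 0 fell, which is near the 12.8% of all tested genes higher. The gene that rose was Arntl, the clock factor BMAL1, with a log2 fold change of 1.30 (edgeR adjusted p = 0.000425), while its partner Clock had -0.36 and did not pass. Ahr had 0.15 and did not pass.

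Of 11 other enzymes that use oxygen in the same or a like reaction, all tested, 2 rose and 0 fell. The first count is close to the 12.8% of all tested genes higher and 10.2% were lower, so the counts are no result about the list. Without Ctrl replicate 1, the repeated Confine library or Confine replicate 3, 1 was higher. Jmjd6, a 2-oxoglutarate dioxygenase, went from 59.3 to 68.2 normalized CPM in Ctrl to 224 in the repeated Confine library and 194 in Confine replicate 3. Its log2 fold change was 1.69 (edgeR adjusted p = 1.348e-06). Kdm5a, a histone demethylase whose activity is known to depend on oxygen, rose with 0.68 (edgeR adjusted p = 0.0105). Ado, a thiol dioxygenase that senses oxygen, had -0.15 and P4htm, a membrane-bound prolyl hydroxylase, -0.47, and neither passed.

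Of 10 widely used HIF target genes, 10 rose, against 12.8% of all tested genes, with log2 fold changes from 1.76 for Ldha, lactate dehydrogenase, to 5.59 for Car9, carbonic anhydrase 9. This list was written with the response of hypoxia genes in these libraries already known, so its count is no independent evidence. The log2 fold changes of Egln1 (3.02) and Vhl (1.86) lie inside that range. The range is wide and comes from the same list, so this is no evidence that either gene responds as a target. The 8 tested members spanned -0.99 to 3.02.

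**Figure D5:**
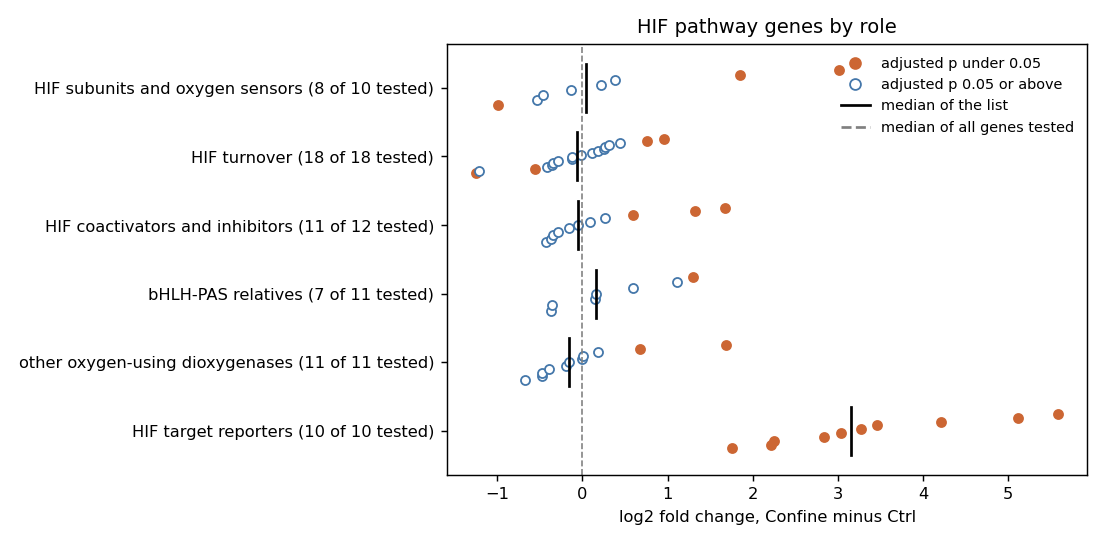
Log2 fold change (Confine minus Ctrl) of each tested gene by list, filled where the edgeR adjusted p was under 0.05, with the median of each list as a bar and that of all genes tested as a dashed line. The 10 target genes lie between 1.76 and 5.59, while the medians of the other lists lie between -0.15 and 0.16.

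Hif1a and Epas1 were also compared with 12202 tested protein-coding genes in the distance of their log2 CPM, centred on Ctrl, over the 5 libraries. The genes nearest to Hif1a were Nav3, Ocrl and Sept9 (distances 0.0384, 0.0420 and 0.0814). Those nearest to Epas1 were Tbc1d32, Ogfrl1 and Itpkb (0.125, 0.131 and 0.168). None of these 6 passed the test, with edgeR adjusted p from 0.129 to 0.298. They were picked for values close to those of genes that did not pass, so this outcome was largely set by the choice. Egln3 was not tested and has no such neighbours.

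The libraries held 22287210 to 32537550 counts. The label was checked against defining markers. Of 10 fibroblast markers 7 were tested, among them Col1a1, Col1a2, Col3a1 and Vim with at least 5159 counts in each library, while Thy1, Dcn and Lum had at most 2, 27 and 1. The summed fibroblast level was 8091 to 8830 normalized CPM in Ctrl and 14200 to 14880 in Confine. Of 7 leukocyte markers 3 were tested. Cd68 and Csf1r were higher and Lyz2 lower in Confine, Adgre1 and Tyrobp were at 0, and the sum was 7.23 to 8.395 normalized CPM in Ctrl and 18.35 to 25.9 in Confine. Of 6 epithelial markers 1 was tested. It was Krt19, with 4 to 7 counts in Ctrl and 114 and 204 in Confine. Epcam and Krt18 were at 0, and the sum went from 0.38 to 0.680 normalized CPM in Ctrl to 4.02 and 8.78 in Confine. The part of such cells in the results above was not tested.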

How the data were processed

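RNA-seq covered 3 Ctrl and 3 Confine samples. The authors selected polyadenylated RNA, made dUTP libraries and deposited raw counts per gene. The submitters' processing notes name Trim Galore 0.6.10, HISAT2 2.1.0, SAMtools 1.5, featureCounts and mm10; annotation and strand setting are not given in the sources used here. Gene names, positions and exon lengths came from GENCODE M21 (GRCm38), which matched 55154 of 55335 identifiers without version. Identical Confine columns were counted once, 0 columns were unused, and totals were 22287210 to 32537550 counts.

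Counts were filtered (filterByExpr), TMM-normalized and tested with edgeR 4.0.16 (R 4.3.3, with 3 residual degrees of freedom), with Benjamini-Hochberg adjustment over 15881 genes. The test also draws on the spread of other genes, with a median of 14.8 prior degrees of freedom. Small p-values thus do not rest on a gene's own spread alone. Scripts were tested on simulated data. Genes passed at an adjusted p under 0.05. Shares used counts per kilobase of merged exons. Copies were searched with blastn 2.17.0. Members and lists were chosen with earlier results of these data known. Named were all members, list genes that passed with an absolute log2 fold change above 1 (target genes by range), and the 3 nearest genes in pattern. Wsb1, Siah2, Senp1, Ncoa3, Kdm5a and genes that did not pass were named after their values were seen. Alternatives were DESeq2 1.42.0, limma-voom (limma 3.58.1), other scalings and filters, the study's fold cutoff, a replicate block, the columns as deposited, and leaving out each library.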

Additional observations from a re-analysis of the deposited data

How the results depend on the processing

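Egln1 and Vhl were called higher in all 14 alternative fits, and no log2 fold change of a tested member changed sign. The call of Egln2 changed with the columns as deposited (3 against 3, log2 fold change -0.47) and with library size alone (-0.66). It also changed with the replicate block that gives the repeated library number 1 (-0.60), a block in which Hif1a also passed (0.54). The columns as deposited enter the repeated library as if it were separate samples, which understates the spread. The standard error of Egln2 was 0.15 there against 0.19 in the main fit, so calls gained there are no further evidence. Leaving out single libraries gave log2 fold changes from 0.27 to 0.54 for Hif1a, from -1.45 to -0.63 for Arnt2 and from -0.60 to -0.35 for Egln2. Library size alone shifted the median over all tested genes by -0.208.

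The replicate block moved the number of genes called from 2035 higher and 1619 lower to 1448 and 1080 with the repeated library as number 2, and to 2640 and 2293 as number 1. These fits had 1 residual degree of freedom, and only 2 pairs exist, whose differences correlated across genes at -0.0531 and 0.0521, so the numbers were not taken to pair the libraries. With the block as number 2, 0 genes of HIF stability were lower and 1 other dioxygenase was higher. As number 1, members lower were 2, coactivators lower 1, bHLH-PAS genes higher 2 and other dioxygenases lower 2.

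Counts by list moved as follows. As deposited, members lower were 2, coactivators lower 1, bHLH-PAS genes higher 2 and other dioxygenases lower 1. With library size alone, members lower were 2, HIF stability genes 1 higher and 4 lower, coactivators 2 lower, bHLH-PAS genes 1 lower, and other dioxygenases 1 higher and 2 lower. DESeq2 and limma-voom each called 1 HIF stability gene lower. Without a filter bHLH-PAS genes higher were 3, and with at least 10 counts in every library 2. With the study's fold cutoff, members lower were 0, HIF stability genes 0 in either direction, coactivators higher 1, bHLH-PAS genes higher 0 and other dioxygenases higher 1. Leaving out each library gave 0 to 2 members lower, 1 to 2 HIF stability genes higher and 0 to 3 lower, 1 to 3 coactivators higher and 0 to 1 lower, 1 to 2 bHLH-PAS genes higher, and 1 to 2 other dioxygenases higher and 0 to 2 lower. The lower counts came without Ctrl replicate 1 or a Confine library, except that 1 HIF stability gene was also higher without Ctrl replicate 3. Without Ctrl replicate 2, members lower were 2, coactivators lower 1, bHLH-PAS genes higher 2 and other dioxygenases lower 2, and without Ctrl replicate 3 HIF stability genes lower were 3. The other settings left these counts within 1.5 times, and the causes were not tested. Family shares moved by less than the spread between libraries, the Arnt2 share having been added after seeing the data. Few counts limit Epas1, Hif3a and Egln3.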
